A study of Mus musculus with 9 samples.

Results

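The AMPA and kainate receptor subunits are the 9 genes Gria1, Gria2, Gria3, Gria4, Grik1, Grik2, Grik3, Grik4 and Grik5. They were read through every array probe whose RefSeq identifier maps to one of these symbols, which gave 17 of the 41174 probes and 9 of the 18327 named genes. The 4 AMPA subunit genes have 9 probes and the 5 kainate subunit genes have 8, and each probe was read separately. Neurons from the cortex of C57BL/6 mice at embryonic day 15 were cultured for 12 days, and their total RNA was end-labelled with Cy3 and hybridised to a 1-colour Agilent whole-genome mouse array. The 3 groups, with 3 arrays each, were neurons given 50 mM KCl for 6 h (KCl), neurons given 25 µM bicuculline for 6 h (Bic) and untreated neurons (control). KCl depolarises the cells, and bicuculline blocks GABA-A receptors and so removes fast inhibition. No genotype, transgene or agent other than these is given in the labels, and nothing there says that the arrays of a group stand for separate cultures. The p-values therefore measure how far these arrays scatter, which may be technical.

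AMPA receptors are tetrameric glutamate-gated channels that carry most fast excitatory current in cortical neurons, and their number at the synapse is adjusted as activity changes. The Gria2 subunit, once its transcript is edited, makes the channel nearly impermeable to calcium, and all AMPA subunit transcripts are alternatively spliced. Among the kainate subunits, the products of Grik1, Grik2 and Grik3 can form channels alone, whereas those of Grik4 and Grik5 bind kainate with high affinity but need a Grik1 to Grik3 partner to reach the surface, and kainate receptors modulate transmitter release as well as postsynaptic current.

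The 75th percentile of the signal lay between 1586 and 3087 on the 9 arrays, with 65.0% to 75.9% of spots marked well above background and 0 saturated. Values below are the deposited processed signal as a multiple of the 75th percentile of its own array, called the scaled signal; each probe has its own brightness, so levels were compared between groups and never between probes. The activity genes Fos and Bdnf were higher in KCl (log2 fold change 4.47 and 3.19) and in Bic (2.76 and 2.90) than in control. The summed scaled signal of 9 neuronal markers was 142.6 to 147.0 in KCl, 140.1 to 143.0 in Bic and 111.6 to 116.6 in control. Without Nefl, whose signal averaged 43.3 in KCl, 46.4 in Bic and 16.2 in control, the other 8 summed to 98.9 to 103.1 in KCl, 94.2 to 96.1 in Bic and 95.9 to 99.7 in control. Of the 9, 6 were higher and 1 lower in KCl than in control, against 70.8% of all genes called (35.3% higher and 35.5% lower). In Bic against control 1 was higher and 3 lower, against 42.3% of all genes (16.7% higher and 25.7% lower). The sum of 8 GABAergic interneuron markers was 114 to 123 in KCl, 96.3 to 99.7 in Bic and 85.8 to 87.5 in control. Sst averaged 48.7 in KCl, 35.5 in Bic and 26.8 in control. Without it the other 7 summed to 66.7 to 72.4 in KCl, 61.7 to 63.6 in Bic and 59.2 to 59.9 in control. The sum of 8 astrocyte markers was 102.1 to 107.4 in KCl, 87.6 to 90.1 in Bic and 88.2 to 95.5 in control. Without Slc1a3 the other 7 summed to 58.0 to 62.1 in KCl, 49.0 to 51.6 in Bic and 52.6 to 53.5 in control. The 7 tested oligodendrocyte lineage markers, of 8 listed, summed to 34.3 to 35.2 in KCl, 28.9 to 30.6 in Bic and 30.7 to 31.9 in control. Without Olig1 the other 6 summed to 15.0 to 15.7 in KCl, 12.2 to 13.1 in Bic and 13.5 to 13.6 in control. The 4 tested vascular and fibroblast markers, of 6 listed, summed to 15.5 to 15.9 in KCl, 12.7 to 13.1 in Bic and 12.6 to 12.8 in control. Acta2 averaged 13.8 in KCl, 11.5 in Bic and 11.1 in control. Without it the other 3 summed to 1.82 to 1.90 in KCl, 1.38 to 1.43 in Bic and 1.56 to 1.66 in control. Mog, a defining gene of mature oligodendrocytes, and Pecam1, one of endothelial cells, were not well above background on any array and are not in these sums. The 3 tested microglial markers, of 7 listed, summed to 0.883 to 1.31 in KCl, 0.686 to 1.02 in Bic and 0.857 to 0.896 in control. The 4 cycling-cell markers summed to 5.15 to 5.67 in KCl, 5.50 to 5.91 in Bic and 5.90 to 6.82 in control. Fewer cells of a type and less RNA per cell cannot be told apart in such bulk samples, and the part of these marker shifts in the subunit results was not tested.

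The sequence upstream of the gene start is shown for the 4 subunits whose probes showed the largest changes under KCl, Grik3, Gria2, Grik2 and Gria4. RefSeq promoter windows of assembly GRCm38.p6 matched 6 of the 9 subunits, and the 250 bases before the start are printed 5′ to 3′ on the strand of the gene, with every CpG dinucleotide in capitals. The windows are chr4:125490446-125490695 on the plus strand for Grik3, and on the minus strand chr3:80802836-80803085 for Gria2, chr10:49788755-49789004 for Grik2 and chr9:4796235-4796484 for Gria4.
Grik3: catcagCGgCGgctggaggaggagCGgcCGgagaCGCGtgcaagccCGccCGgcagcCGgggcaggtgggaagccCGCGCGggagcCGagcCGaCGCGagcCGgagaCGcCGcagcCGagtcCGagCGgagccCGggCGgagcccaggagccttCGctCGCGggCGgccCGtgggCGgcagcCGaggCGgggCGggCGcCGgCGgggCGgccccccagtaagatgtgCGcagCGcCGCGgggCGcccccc
Gria2: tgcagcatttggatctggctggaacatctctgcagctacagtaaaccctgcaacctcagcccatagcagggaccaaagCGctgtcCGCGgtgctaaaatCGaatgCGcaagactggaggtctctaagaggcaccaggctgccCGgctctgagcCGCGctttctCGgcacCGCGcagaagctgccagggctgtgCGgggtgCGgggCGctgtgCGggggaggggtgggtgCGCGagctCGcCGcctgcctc
Grik2: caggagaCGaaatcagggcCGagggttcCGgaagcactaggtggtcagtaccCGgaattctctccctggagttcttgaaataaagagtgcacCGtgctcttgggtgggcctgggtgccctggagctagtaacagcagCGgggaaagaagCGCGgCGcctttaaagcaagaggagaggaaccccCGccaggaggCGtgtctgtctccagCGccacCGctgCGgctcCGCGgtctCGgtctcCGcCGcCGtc
Gria4: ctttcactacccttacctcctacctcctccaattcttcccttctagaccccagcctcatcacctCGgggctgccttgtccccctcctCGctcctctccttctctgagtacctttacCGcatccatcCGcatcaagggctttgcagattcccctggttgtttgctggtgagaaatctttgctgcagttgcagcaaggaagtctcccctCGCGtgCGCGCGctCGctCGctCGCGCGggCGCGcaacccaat
The Grik3 window is the richest of these in CpG, with 42 and a GC content of 82%, and the others have 19 (Gria2, 64.8% GC), 20 (Grik2, 62.8% GC) and 16 (Gria4, 58.8% GC). The median over 32851 promoter windows of the same length was 6 CpG and 52.4% GC. On either strand, the 6 matched windows held no TGACG, the core of the cAMP response element that also lies inside TGACGTCA, no TGANTCA, no CArG box and no GCGTGGGCG. These letters occur in 17.8% (TGACG), 1.55% (TGACGTCA), 6.75% (TGANTCA), 1.47% (CArG box) and 0.536% (GCGTGGGCG) of all windows. The GC box GGGGCGGGG, found in 10.4% of windows, occurred once, at position -64 relative to the start of Grik5. No match says only that these letters are not in this window.

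Under KCl and Bic the direction of change depended on the subunit and, for some genes, on the probe. Gria1 and Gria3 were lower in both treatments, Grik2 was higher in both on its brighter probe, and the probes of Gria2 and Gria4 parted under KCl. All Gria1 and Gria3 calls in Bic were lost with spike-in scaling (limma adjusted p 0.15 to 0.38). Normexp background correction with the 75th percentile also ended them (0.35 to 0.98). It ended the KCl calls of both Gria1 probes and Gria3 A_52_P179309 too (0.081 to 0.13). Of the 16 probes that passed the filter on dim signal, 3 were higher and 8 lower in KCl than in control, and 5 did not pass the test (limma, adjusted p under 0.05 over all 27781 probes). Over all probes tested, 69.3% were called in that comparison (36.3% higher and 32.9% lower), so the subunits' 68.8% is no more than the background. In Bic against control, 2 probes were higher, 6 lower and 8 did not pass, against 39.9% of all probes called (17.4% higher and 22.5% lower). In KCl against Bic, 3 probes were higher, 7 lower and 6 did not pass, against 60.6% of all probes (34.6% higher and 26% lower). The arrays of the groups did not overlap for 11 subunit probes in KCl against control (73% of all probes), 11 in Bic against control (54.1%) and 12 in KCl against Bic (67.3%). The count of 16 includes Grik3 A_52_P60243, which passed the filter through its KCl arrays alone; among the other 15 probes, 2 were higher and 8 lower in KCl than in control, and 2 higher and 7 lower in KCl than in Bic. The median log2 change of the 16 probes was -0.17 for KCl against control, where that of all probes was 0.05, and -0.02 for Bic against control, where all probes also had -0.02. The 17th probe, Grik3 A_51_P258348, was well above background on 1 KCl, 1 Bic and 0 control arrays and was not tested.

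**Figure D1:**
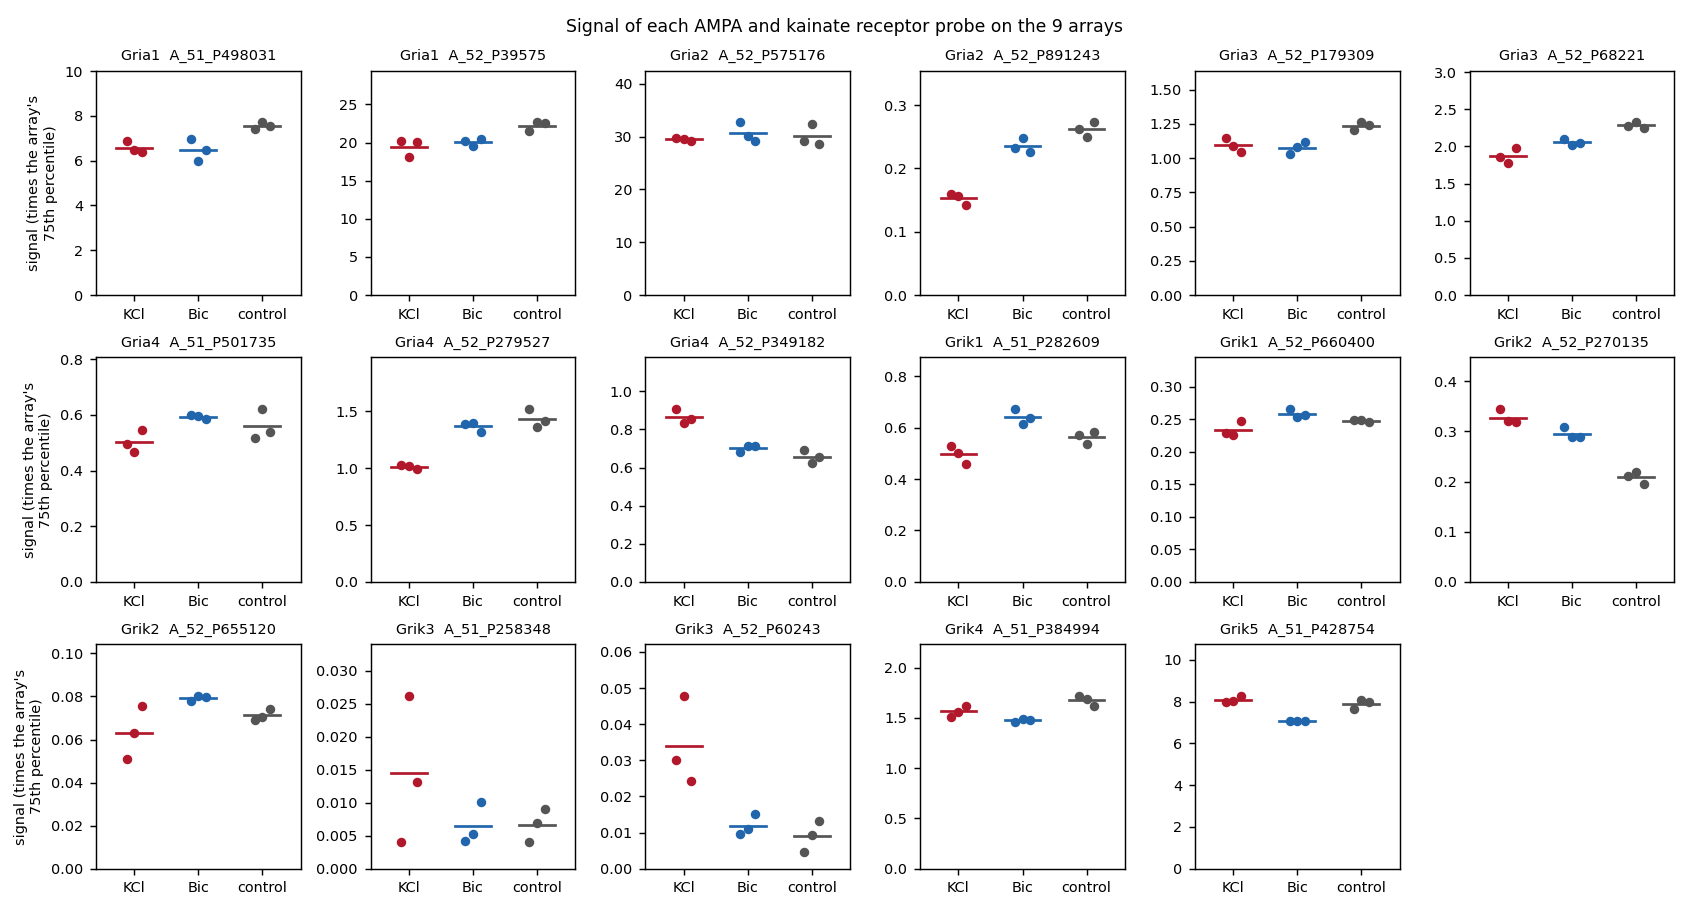
Scaled signal (multiples of the 75th percentile of each array, linear axes from 0) of all 17 subunit probes on the 9 arrays. Points are arrays, bars are group means and each panel has its own scale; the brighter Grik2 probe sits at 0.318 to 0.344 in KCl, 0.289 to 0.309 in Bic and 0.195 to 0.219 in control.

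Gria2, the subunit that sets the calcium permeability of AMPA receptors, was read by 2 probes that differed under KCl. The bright probe, A_52_P575176, had scaled signals of 29.8, 29.6 and 29.1 in KCl, 32.7, 30.0 and 29.2 in Bic, and 29.1, 32.4 and 28.6 in control. The 3 groups overlapped, and neither KCl (log2 -0.02 ± 0.06 SE, limma adjusted p = 0.74) nor Bic (0.03 ± 0.06, 0.73) passed the test against control. The dim probe, A_52_P891243, had 0.160, 0.156 and 0.142 in KCl, 0.232, 0.249 and 0.226 in Bic, and 0.263, 0.250 and 0.273 in control. Every KCl array lay below every Bic and control array, and this probe was 41.8% lower in KCl than in control (log2 -0.78 ± 0.06, limma adjusted p = 1.2e-05) and 35.3% lower in KCl than in Bic (7.3e-05). Its Bic arrays also lay below all control arrays but by a smaller amount that did not pass (log2 -0.15 ± 0.06, 0.083). The difference between the probes, bright minus dim on each array, was 0.76 ± 0.09 larger in KCl than in control on the log2 scale (limma on probe differences, adjusted p = 2.1e-04) and 0.57 ± 0.09 larger in KCl than in Bic (0.0017). With normexp background correction and the 75th percentile, the fall of the dim probe in KCl was -0.07 (adjusted p = 0.90), and with quantile normalization the bright probe was called lower in KCl (-0.26, 0.0013).

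Gria4, an AMPA subunit of fast-spiking interneurons and of immature projection neurons, had 3 probes that moved in different directions under KCl. A_52_P279527 had scaled signals of 1.03, 1.02 and 0.994 in KCl, 1.39, 1.40 and 1.32 in Bic, and 1.52, 1.36 and 1.42 in control. The KCl arrays lay below all others, and the probe was 29.3% lower in KCl than in control (log2 -0.50 ± 0.05, limma adjusted p = 3.5e-05) and 26.0% lower in KCl than in Bic (1.3e-04). A_52_P349182 went the other way, with 0.906, 0.833 and 0.853 in KCl, 0.683, 0.715 and 0.713 in Bic, and 0.694, 0.622 and 0.657 in control. Here the KCl arrays lay above all others, and the probe was 31.4% higher in KCl than in control (log2 0.39 ± 0.05, limma adjusted p = 2.5e-04) and 22.8% higher in KCl than in Bic (0.0017), a call lost with median scaling (log2 0.17, adjusted p = 0.077) and spike-in scaling (0.07, 0.65). The third probe, A_51_P501735, had 0.495, 0.467 and 0.545 in KCl, 0.600, 0.595 and 0.587 in Bic, and 0.518, 0.620 and 0.540 in control, so that KCl overlapped control and lay below Bic. It did not pass in KCl against control (-0.15 ± 0.08, limma adjusted p = 0.11) and was lower in KCl than in Bic (-0.24 ± 0.08, 0.027). That call was lost without Bic 1, Bic 2, Bic 3, KCl 1 or KCl 2 (adjusted p 0.055 to 0.086), and without KCl 3 the probe was called lower in KCl than in control (0.047). None of the 3 probes passed in Bic against control, where their log2 changes were -0.07, 0.10 and 0.09 in the order given.

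The difference between the first of these Gria4 probes and the second was the clearest probe contrast among the subunits. On the log2 scale it was 0.18, 0.29 and 0.22 in KCl, 1.02, 0.96 and 0.89 in Bic, and 1.13, 1.13 and 1.11 in control. The groups did not overlap, and its shift was -0.89 ± 0.05 in KCl against control (limma on probe differences, adjusted p = 2.3e-06) and -0.73 ± 0.05 in KCl against Bic (1.9e-05). Scaling an array cancels in such a difference. Spike-in scaling took the rise of A_52_P349182 in KCl to 0.17 (adjusted p = 0.22), while A_52_P279527 stayed lower in KCl in all 13 other settings and without each array in turn.

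**Figure D2:**
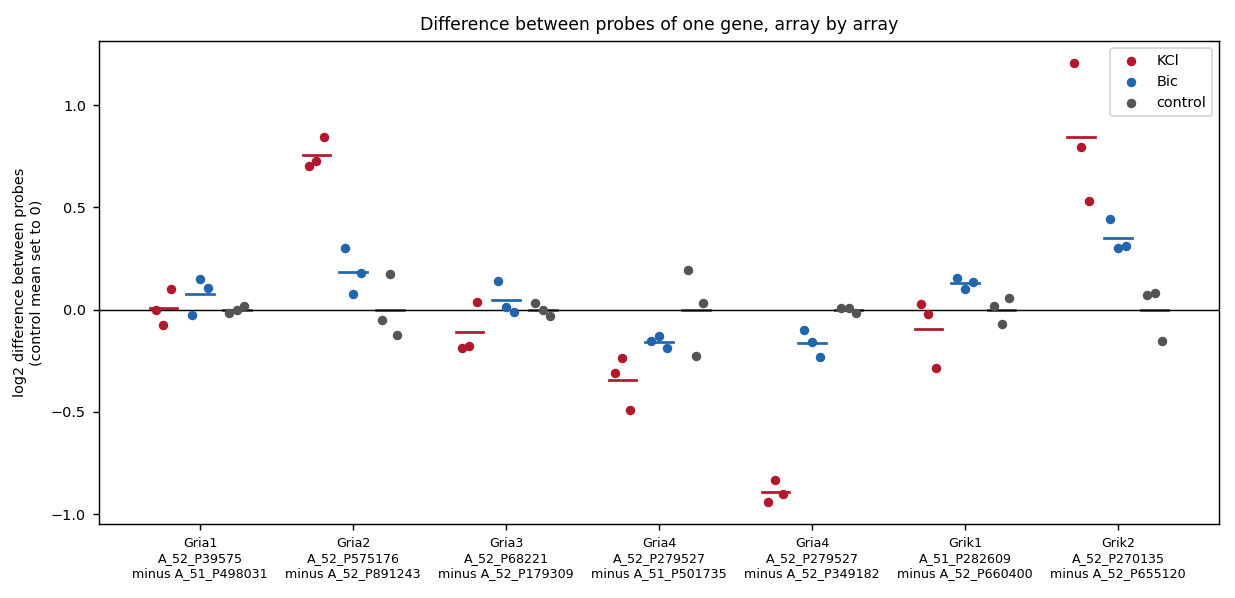
Log2 difference between 2 probes of the same subunit gene on each array, with the control mean of each pair set to 0. Points are arrays and bars are group means; the KCl points of Gria2, Grik2 and the Gria4 pair with A_52_P349182 lie clear of control, whereas those of Gria1 and Grik1 do not.

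Of the 7 probe pairs of the subunits, 4 differed in KCl against control (Gria2, Grik2 and both Gria4 pairs), against 38% of the 6887 pairs of all genes. In KCl against Bic 3 differed, against 29% of all pairs, and in Bic against control none of the 7 did, against 12.4%, although 1 had an unadjusted p under 0.05. The pairs of Gria1, Gria3 and Grik1 did not pass in any comparison. Scaling cancels in these differences but background correction does not. With normexp and the 75th percentile the dim Gria2 probe was at log2 -0.07 in KCl against control, where the main fit had -0.78. The dim Grik2 probe was then at 0.69 in KCl against Bic, where the main fit had -0.34. Which transcript variants each probe reads was not analysed here.

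Gria1, the subunit best known for activity-dependent insertion at synapses, was lower on both probes in both treatments. A_52_P39575 had scaled signals of 20.2, 18.1 and 20.1 in KCl, 20.2, 19.5 and 20.5 in Bic, and 21.5, 22.6 and 22.5 in control. All treated arrays lay below all control arrays, and the probe was 12.5% lower in KCl (log2 -0.19 ± 0.05, limma adjusted p = 0.0099) and 9.77% lower in Bic (-0.15 ± 0.05, 0.049). A_51_P498031 had 6.90, 6.49 and 6.37 in KCl, 6.98, 5.98 and 6.47 in Bic, and 7.40, 7.71 and 7.57 in control, again without overlap. It was 12.9% lower in KCl (log2 -0.20 ± 0.06, limma adjusted p = 0.018) and 14.5% lower in Bic (-0.23 ± 0.06, 0.019). KCl against Bic passed on neither probe (log2 -0.04 and 0.03, adjusted p = 0.47 and 0.72). The Bic call of A_52_P39575 was lost without any 1 array other than KCl 2 (adjusted p 0.053 to 0.14) and with the replicate number as a block (0.065), and that of A_51_P498031 without control 2, control 3, Bic 2 or Bic 3 (0.050 to 0.058). The KCl call of A_51_P498031 was lost without control 2, KCl 2 or KCl 3 (0.052 to 0.059) and with slide as a block (0.13).

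Gria3, an AMPA subunit that pairs mainly with Gria2, was also lower on both probes. A_52_P68221 had scaled signals of 1.85, 1.78 and 1.98 in KCl, 2.10, 2.01 and 2.04 in Bic, and 2.27, 2.32 and 2.25 in control. The 3 groups were stepped without overlap, at 18.1% lower in KCl (log2 -0.29 ± 0.04, limma adjusted p = 6.5e-04) and 10.01% lower in Bic (-0.15 ± 0.04, 0.029) than in control. A_52_P179309 had 1.15, 1.09 and 1.05 in KCl, 1.03, 1.08 and 1.12 in Bic, and 1.20, 1.26 and 1.24 in control. The treatments overlapped each other and lay below control, by 11.6% in KCl (log2 -0.18 ± 0.05, limma adjusted p = 0.010) and 12.9% in Bic (-0.20 ± 0.05, 0.011). The Bic call of A_52_P68221 was lost without control 1, control 2, control 3, Bic 2 or Bic 3 (adjusted p 0.059 to 0.088) and with the replicate number as a block (0.053), whereas its KCl call held in every setting and without each array. Its call in KCl against Bic (log2 -0.14 ± 0.04, adjusted p = 0.031) was lost without Bic 1, KCl 1, KCl 2 or Bic 3 (0.066 to 0.095).

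**Figure D3:**
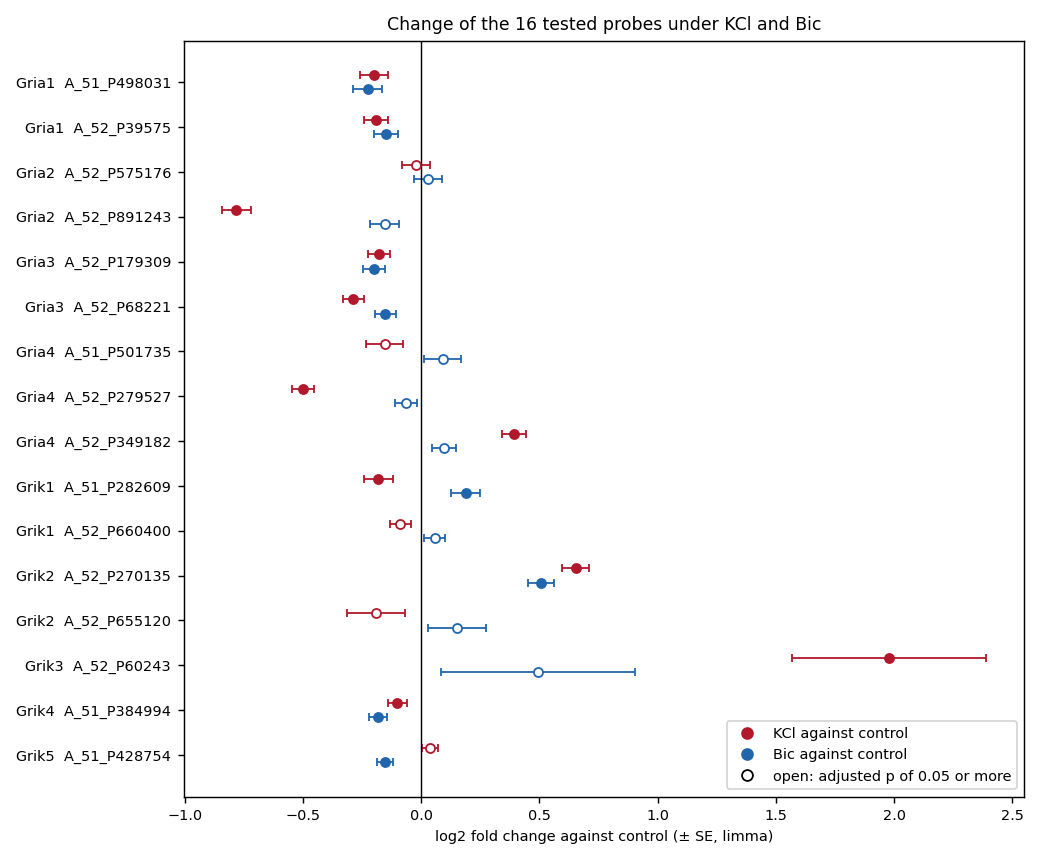
Log2 fold change against control (limma, ± SE) of the 16 tested subunit probes in KCl and in Bic, with filled points for an adjusted p under 0.05. In KCl the AMPA probes lie left of 0 apart from Gria4 A_52_P349182 at 0.39, in Bic 3 of the 9 lie right of 0 at 0.03 to 0.10 with open points (Grik3, not well above background in control, is drawn at its fitted value), and Grik2 A_52_P270135 lies right of 0 in both treatments.

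The changes of the AMPA genes relative to each other were compared on the brightest probe of each gene, a comparison chosen after the values were seen. The log2 difference Gria2 minus Gria4 was 4.86, 4.86 and 4.87 in KCl against 4.26, 4.57 and 4.34 in control, a mean shift of 0.48. The corresponding shift in KCl was 0.26 for Gria2 minus Gria3 and 0.17 for Gria2 minus Gria1. It was 0.31 for Gria1 minus Gria4, 0.21 for Gria3 minus Gria4 and 0.10 for Gria1 minus Gria3. In each of these 6 cases the KCl arrays lay above all control arrays, and each had an exact two-sided permutation p of 0.1, the smallest that 3 arrays against 3 allow (0.17 after adjustment over the 12 differences computed). The 6 share the same probes, and each has the gene less lowered in KCl first. Their signs were therefore fixed, and they are not 6 separate results. In Bic the shifts of Gria2 against Gria4, Gria3 and Gria1 were 0.10 (p = 0.5), 0.18 (p = 0.1) and 0.18 (p = 0.2) by the same exact test. The sign depended on the probe: in KCl, Gria2 minus Gria4 shifted by -0.42 with Gria4 A_52_P349182 in place of the brightest probe, and by -0.28 with the dim Gria2 probe in its place.

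Among the channel-forming kainate subunits, Grik2 rose in both treatments on its brighter probe. This probe, A_52_P270135, had scaled signals of 0.344, 0.321 and 0.318 in KCl, 0.309, 0.289 and 0.289 in Bic, and 0.211, 0.219 and 0.195 in control. The groups were stepped without overlap, with the probe 57.3% higher in KCl (log2 0.65 ± 0.06, limma adjusted p = 2.0e-05) and 42.0% higher in Bic (0.51 ± 0.06, 2.6e-04) than in control. The gap between KCl and Bic was 0.15 ± 0.06 and lay at the threshold (limma adjusted p = 0.0505), passing without control 2, control 3 or Bic 1 (0.038 to 0.048). The dim probe, A_52_P655120, had 0.0510, 0.0632 and 0.0754 in KCl, 0.0780, 0.0802 and 0.0796 in Bic, and 0.0689, 0.0706 and 0.0744 in control. The KCl arrays spread across the control range, and this probe passed neither in KCl (log2 -0.19 ± 0.12, limma adjusted p = 0.20) nor in Bic (0.15 ± 0.12, 0.37). Its fall in KCl against Bic (-0.34 ± 0.12, adjusted p = 0.041) was lost without any 1 array other than KCl 3 (0.055 to 0.097), and without KCl 3 it was called lower in KCl than in control (0.015). The difference between the Grik2 probes was 0.84 ± 0.16 larger in KCl than in control (limma on probe differences, adjusted p = 0.0026). That value holds for the main background correction. Over the alternatives the log2 change in KCl against control ran from -0.42 to 0.75 for the dim probe and from 0.43 to 0.82 for the brighter one. With normexp and the 75th percentile the dim probe was 0.69 above Bic in KCl (limma adjusted p = 0.33). The rise of the brighter probe in KCl held in all 13 other settings and without each array, and its rise in Bic was lost with normexp background correction and the 75th percentile (0.44, adjusted p = 0.48).

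Grik3, a kainate subunit with low glutamate sensitivity, was detected under KCl only near the limit of the array. A_52_P60243 had scaled signals of 0.0300, 0.0478 and 0.0242 in KCl, 0.00957, 0.0109 and 0.0151 in Bic, and 0.00459, 0.00931 and 0.0133 in control. It was well above background on 3 KCl, 1 Bic and 0 control arrays, and the KCl arrays lay above all others. With the main scaling and background correction the level in KCl was at least 2.15-fold higher than in control. This bound was taken against the lowest signal marked well above background on each control array. The bound itself was not tested, and it does not cover the alternatives, over which the fitted log2 change ran from 0.36 to 2.32. The limma adjusted p of 0.0031 belongs to the fitted change, which uses control values that were not well above background. The probe entered the test through its KCl arrays, the group where it was high, so this p is not independent of the filter; with no filter it was 0.0073. Under normexp background correction the call was lost with percentile scaling (limma adjusted p = 0.13). No fold is given for KCl against Bic or Bic against control, since 1 Bic and 0 control arrays were well above background. The other Grik3 probe had 0.0040, 0.026 and 0.013 in KCl, 0.0043, 0.0053 and 0.010 in Bic, and 0.0040, 0.0069 and 0.0091 in control, so the groups overlapped.

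Grik1, a kainate subunit of GABAergic interneurons in particular, went in opposite directions in the treatments on its brighter probe. A_51_P282609 had scaled signals of 0.529, 0.503 and 0.460 in KCl, 0.671, 0.615 and 0.638 in Bic, and 0.571, 0.538 and 0.581 in control. The groups did not overlap, with KCl 11.8% lower (log2 -0.18 ± 0.06, limma adjusted p = 0.029) and Bic 13.9% higher (0.19 ± 0.06, 0.042) than control, and KCl 22.6% lower than Bic (0.0013). A_52_P660400, which carries a different RefSeq identifier of the gene, had 0.228, 0.225 and 0.247 in KCl, 0.265, 0.253 and 0.256 in Bic, and 0.248, 0.249 and 0.246 in control. This probe passed in neither comparison with control (log2 -0.09 and 0.06, limma adjusted p = 0.10 and 0.34) and was lower in KCl than in Bic (-0.14 ± 0.04, 0.020). The Bic call of A_51_P282609 was lost without any 1 array other than KCl 1 or KCl 3 (adjusted p 0.052 to 0.13), and its KCl call without control 1, control 3, KCl 2 or KCl 3 (0.054 to 0.088) and with slide as a block (0.12). The call of A_52_P660400 in KCl against Bic was lost without Bic 1, KCl 1 or KCl 2 (0.061 to 0.068), and without KCl 3 the probe was called lower in KCl than in control (0.017).

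The high-affinity subunits Grik4 and Grik5, with 1 probe each, were lower in Bic. Grik4 had scaled signals of 1.51, 1.56 and 1.62 in KCl, 1.46, 1.49 and 1.48 in Bic, and 1.72, 1.69 and 1.62 in control. The Bic arrays lay below all others, 11.9% under control (log2 -0.18 ± 0.04, limma adjusted p = 0.0070), while the highest KCl array lay just below the lowest control array. Grik4 in KCl was 6.71% lower than control (-0.10 ± 0.04, limma adjusted p = 0.048), a call lost without any 1 array other than control 3 or KCl 3 (0.065 to 0.14). Grik5 had scaled signals of 7.97, 8.01 and 8.26 in KCl, 7.08, 7.07 and 7.09 in Bic, and 7.62, 8.06 and 7.96 in control. Bic again lay below all others, 10.1% under control (log2 -0.15 ± 0.03, limma adjusted p = 0.0080), and Grik5 in KCl did not pass against control (0.04 ± 0.03, 0.36). Grik5 was 14.1% higher in KCl than in Bic (0.19 ± 0.03, limma adjusted p = 0.0018), with a log2 difference of -0.04 (0.76) under spike-in scaling and of 0.07 (0.39) under median scaling.

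The subunit calls were set beside the slides and the scaling. Slide 1 held 2 control and 2 Bic arrays, slide 2 held 2 KCl, 1 control and 1 Bic array, and KCl 3 was alone on slide 3. Within slide 2 all 11 probes called in KCl against control kept their sign, as did all 10 called in KCl against Bic. Within slides 1 and 2 all 8 called in Bic against control did. These arrays are among those that made the calls. For every called probe the compared groups did not overlap, so the sign within a slide was fixed in advance and could not have differed. Scaling on the 7 spike-in probes shifted the median of all probes in KCl against control by -0.23 (log2) and gave 2 subunit probes higher and 11 lower, against 3 and 8. In Bic against control it left 1 subunit probe called, the brighter Grik2 probe. With median scaling and with no filter, Gria1 A_52_P39575, Gria3 A_52_P68221 and Grik1 A_51_P282609 did not pass in Bic against control (adjusted p 0.068 to 0.12). With normexp and quantile normalization Gria3 A_52_P68221, Grik1 A_51_P282609, Grik4 and Grik5 did not (0.052 to 0.21). With slide as a block, Gria1 A_52_P39575 did not pass in Bic (0.073), nor Grik4 in KCl (0.11). With normexp and the 75th percentile, 4 subunit probes passed in KCl against control (Gria3 A_52_P68221, Gria4 A_52_P279527, Gria4 A_52_P349182 and Grik2 A_52_P270135) and 0 in Bic against control. In KCl against Bic, spike-in scaling gave 1 higher and 9 lower, and median scaling 1 higher and 7 lower, against 3 and 7.

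**Figure D4:**
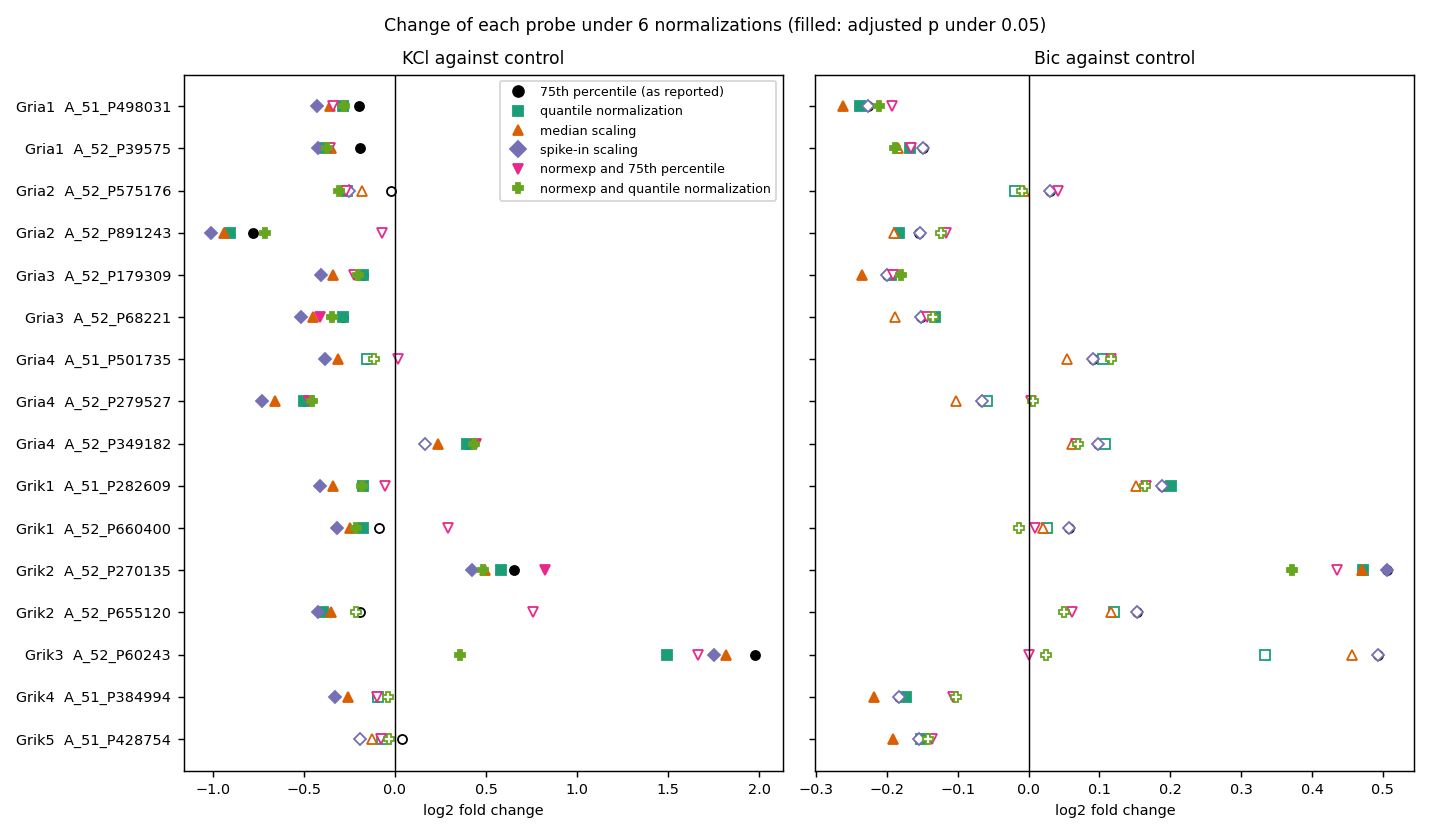
Log2 fold change of each tested subunit probe against control under 6 normalizations, for KCl and for Bic, with filled symbols for an adjusted p under 0.05. Grik2 A_52_P270135 and Gria4 A_52_P279527 keep their side of 0 in KCl under all 6, and the symbols of Gria2 A_52_P891243 run between -1.01 and -0.07.

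Transcripts of genes whose products act with or on these subunits were read from 4 lists, each gene by its brightest probe, with 37 of 43 genes tested. In KCl against control 17 were higher and 9 lower, against 70.8% of all genes called (35.3% higher and 35.5% lower). In Bic against control 7 were higher and 13 lower, against 42.3% (16.7% higher and 25.7% lower), and in KCl against Bic 20 were higher and 1 lower, against 63.1% (34.9% higher and 28.2% lower). With spike-in scaling the split was 10 higher and 14 lower in KCl against control, and 5 higher and 6 lower in KCl against Bic. Median scaling gave 13 higher and 13 lower in KCl against control, and quantile normalization gave 16 higher and 4 lower in KCl against Bic.

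Of 15 AMPA auxiliary genes tested, 7 were higher and 3 lower in KCl than in control, 1 higher and 6 lower in Bic than in control, and 11 higher and 0 lower in KCl than in Bic. In the same order, 70.8%, 42.3% and 63.1% of all genes were called. The median log2 change of the 15 was 0.23, -0.09 and 0.33 in that order, where all genes had 0.02, -0.03 and 0.07. Spike-in scaling ended the calls of Cnih3, Cacng7 and Gsg1l in KCl against Bic (limma adjusted p 0.27, 0.10 and 0.0503). Cacng2, which encodes the AMPA receptor trafficking protein stargazin, had scaled signals of 0.828, 0.846 and 0.867 in KCl, 0.874, 0.872 and 0.873 in Bic, and 1.15, 1.34 and 1.23 in control. It was lower in KCl (log2 -0.55 ± 0.05, limma adjusted p = 4.2e-05) and in Bic (-0.51 ± 0.05, 2.1e-04), and its treated arrays lay below all control arrays. Cacng5, another member of that family, had 0.841, 0.808 and 0.814 in KCl, 0.497, 0.501 and 0.485 in Bic, and 0.960, 0.942 and 0.893 in control. It was lowest in Bic, at log2 -0.91 ± 0.04 against control (limma adjusted p = 1.9e-06), and was -0.18 ± 0.04 in KCl (0.0033), a call lost with slide as a block (0.053) and with normexp and the 75th percentile (0.29). Shisa9, which modulates AMPA receptor desensitisation, had 2.30, 2.19 and 2.29 in KCl, 0.976, 0.925 and 0.925 in Bic, and 0.792, 0.833 and 0.777 in control. It was 2.82-fold higher in KCl (limma adjusted p = 7.6e-08) and 1.18-fold higher in Bic (0.0032), the Bic call being lost with median scaling (0.080), spike-in scaling (0.14) and normexp with the 75th percentile (0.34), whereas its other probe was lower in KCl (log2 -0.46 ± 0.05, 8.6e-05). Frrs1l, which takes part in AMPA receptor assembly, was lower in KCl (-0.35) and Bic (-0.32). Cnih3, an AMPA receptor export factor, was lower in Bic (-0.35) and had 0.03 in KCl (adjusted p = 0.63). Cacng7 (0.50) and Gsg1l (0.47) were higher in KCl and did not pass in Bic (0.08 and 0.00). Under normexp and the 75th percentile Cacng7 and Gsg1l did not pass in KCl (adjusted p = 0.099 and 0.059), nor Frrs1l and Cnih3 in Bic (0.29 and 0.31). Frrs1l in Bic was also lost with spike-in scaling (0.064).

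**Figure D5:**
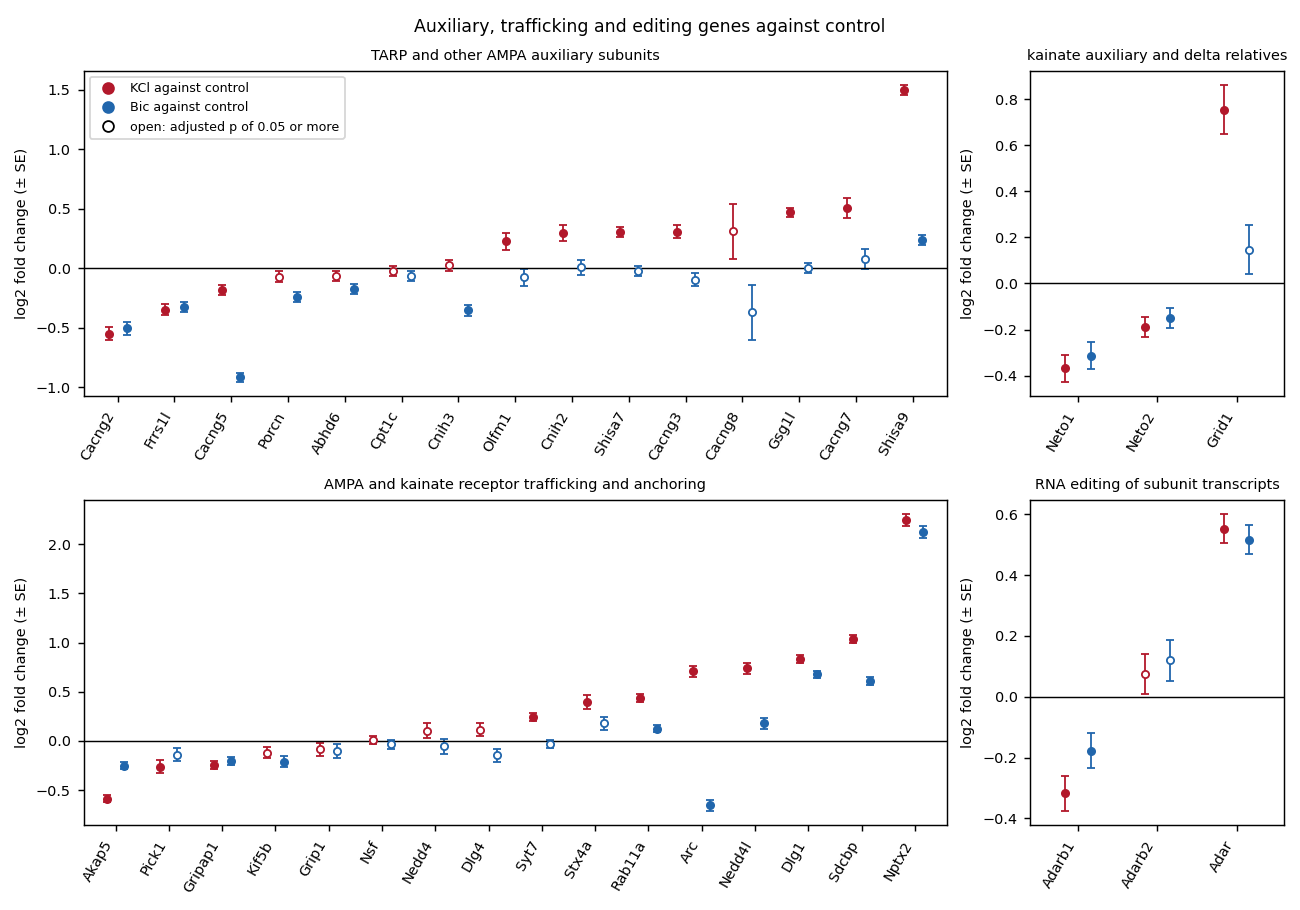
Log2 fold change against control (limma, ± SE) of the auxiliary, trafficking and editing genes by their brightest probe, in KCl and in Bic, with filled points for an adjusted p under 0.05. Cacng5 lies lowest in Bic at -0.91, and Arc lies at 0.71 in KCl and at -0.65 in Bic.

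Of 3 kainate auxiliary and delta receptor genes, 1 was higher and 2 were lower in KCl, and 0 higher and 2 lower in Bic, than in control. Of all genes, 70.8% were called in KCl and 42.3% in Bic. Neto1, which slows kainate receptor gating, had scaled signals of 3.03, 2.69 and 2.98 in KCl, 3.14, 2.87 and 3.02 in Bic, and 3.63, 3.90 and 3.69 in control. Its treated arrays lay below all control arrays (log2 -0.37 ± 0.06 in KCl and -0.31 ± 0.06 in Bic, limma adjusted p = 7.1e-04 and 0.0037). Neto2 was -0.19 in KCl (adjusted p = 0.0050) and -0.15 in Bic (0.025) on its brightest probe, and 0.68 (7.1e-05) and 0.22 (0.041) on the other. The Bic call of the brightest Neto2 probe was lost without control 1, control 3 or any Bic array (adjusted p 0.053 to 0.085), and its KCl call with slide as a block (0.066) and with normexp and the 75th percentile (0.15). In Bic, Neto1 and the brightest Neto2 probe did not pass with spike-in scaling (0.063 and 0.39) or with normexp and the 75th percentile (0.28 and 0.90). Grid1, which encodes a synapse-organising delta receptor, was higher in KCl (0.75 ± 0.11, limma adjusted p = 3.6e-04) and did not pass in Bic (0.15 ± 0.11, 0.32).

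Among 16 trafficking and anchoring genes, 8 were higher and 3 lower in KCl, and 5 higher and 4 lower in Bic, than in control. The share of all genes called was 70.8% in KCl and 42.3% in Bic. Nptx2, a secreted pentraxin that clusters AMPA receptors, had scaled signals of 1.36, 1.54 and 1.41 in KCl, 1.24, 1.39 and 1.34 in Bic, and 0.310, 0.300 and 0.299 in control. It was 4.74-fold higher in KCl and 4.37-fold higher in Bic (limma adjusted p = 5.3e-08 and 2.1e-07). Arc, which promotes AMPA receptor endocytosis, had 2.28, 2.63 and 2.50 in KCl, 0.984, 0.940 and 0.951 in Bic, and 1.504, 1.48 and 1.54 in control. The treatments lay on opposite sides of control (log2 0.71 ± 0.05 in KCl and -0.65 ± 0.05 in Bic), and KCl was 2.57-fold above Bic (limma adjusted p = 1.3e-06). Dlg1, the scaffold SAP97, was higher in KCl (0.83) and Bic (0.68) on its brightest probe and by 2.42 and 1.58 on the other. Sdcbp (syntenin, 1.04 in KCl and 0.61 in Bic) and the ubiquitin ligase Nedd4l (0.74 and 0.18) were higher in both, the Nedd4l call in Bic being lost without any 1 array other than control 3 or Bic 1 (adjusted p 0.056 to 0.12). In Bic, Nedd4l did not pass with median or spike-in scaling (0.11 and 0.24), and Sdcbp did not with normexp and the 75th percentile (0.12).

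The editing enzymes were read for their transcripts only, and editing itself was not measured. Adar was higher in KCl (log2 0.55 ± 0.05, limma adjusted p = 1.9e-05) and Bic (0.52 ± 0.05, 9.1e-05), and its other probe rose by 1.95 and 1.101. Adarb1, whose product edits the Gria2 transcript at the site that sets calcium permeability, was lower on its brightest probe in KCl (-0.32 ± 0.06, limma adjusted p = 0.0015) and Bic (-0.18 ± 0.06, 0.041) and higher on the other (0.51 and 0.23, adjusted p = 2.9e-04 and 0.029). The fall of Adarb1 in Bic was lost without any 1 array other than control 3 or Bic 1 (adjusted p 0.057 to 0.13), and with quantile, median and spike-in scaling (0.060, 0.11 and 0.38). The calls of Adar were lost in KCl and Bic under normexp and the 75th percentile (0.080 and 0.086).

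The genes whose pattern over the 9 arrays was most like that of a subunit were found by the root mean square difference of log2 values centred on the control mean, over 14024 genes, as a description. For the brighter Grik2 probe they were Dip2c (0.047), Nol4 (0.053) and Med20 (0.053), and the log2 change of Dip2c was 0.65 in KCl and 0.47 in Bic. For Grik3 A_52_P60243 they were Tmem239 (0.22), Psg17 (0.31) and Olfr1366 (0.31), at a distance several times larger. This probe was well above background on 3 KCl, 1 Bic and 0 control arrays. Its values were thus centred on a control mean that was not well above background, and no shared pattern is read from these matches.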

How the data were processed

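RNA was measured on 9 arrays, and samples were grouped by their labels alone. The authors deposited scanner intensity after processing by Agilent Feature Extraction; the file headers give release 10.7.3.1 and the submitters' processing notes 10.5.1.1. That software, per the file headers, subtracted background within each array, and arrays had not been scaled to each other. The deposited series values equalled these intensities on all 45018 features.

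Intensity was taken to log2, less the array's own 75th percentile over 43379 non-control spots. Outlier spots were left out, and spots of one probe were averaged. RefSeq identifiers named 26888 of 41174 probes; 14286 stayed unnamed. The filter asked for 1 group with all its arrays well above background, and for 2 or more measured arrays in each group, which left 27781 probes. Limma 3.58.1 in R 4.3.3 was fitted to all 9 arrays with group as the only term (6 residual degrees of freedom, prior 1.71), two-sided, with Benjamini-Hochberg adjustment over all probes in each comparison, and n is 3 arrays per group. A second limma fit took the log2 difference between the brightest and each other probe of a gene (6887 pairs). The median residual SD was 0.075 on the log2 scale, and precision is limited by the number of arrays. The fits were tested on simulated data.

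All subunit probes are named. From the auxiliary, trafficking and editing lists, up to 4 passing genes a list with the largest change are named in each comparison with control; 1 listed gene is not reported here. Same-numbered Bic and control arrays, which also shared slides, deviated together (r 0.209 to 0.669), whereas KCl arrays did not (r -0.484 to -0.0611). The main fits have no pairing term, so their p-values are unpaired in every comparison. Pairing by replicate number was run only as an alternative, the replicate block. The members and lists were chosen with earlier results of these data known. Alternatives were other scalings, normexp background correction (offset 50), other filters, priors and sample sets, slide and replicate blocks, and leaving out each array. Promoter sequences come from RefSeq (GRCm38.p6), whereas the file headers name another mouse build, so no other coordinates are given.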

Additional observations from a re-analysis of the deposited data

How the results depend on the processing

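In order of KCl against control, KCl against Bic and Bic against control, 11, 10 and 8 subunit probes, 19246, 16844 and 11095 of all probes, 26, 21 and 20 auxiliary and trafficking genes, and 2616, 2000 and 853 probe pairs passed. With normexp and the 75th percentile these were 4, 2 and 0 subunit probes, 6112, 3063 and 1029 of all probes, 12, 5 and 5 auxiliary genes, and 804, 385 and 38 pairs. With only the brightest probe of each gene, 7 and 6 subunit probes passed in KCl against control and against Bic, and 10100, 9123 and 6242 of all probes. In Bic against control, 5 subunit probes passed with median scaling, 5 with no filter and 4 with normexp and quantile normalization. Spike-in scaling left 1 subunit probe, 4767 of all probes and 8 auxiliary genes there, and 11 auxiliary genes in KCl against Bic. Leaving out each array gave 8 to 12, 6 to 10 and 4 to 7 subunit probes, 17542 to 19080, 15013 to 16661 and 9171 to 11164 of all probes, 26 to 27, 19 to 22 and 15 to 19 auxiliary genes, and 2221 to 2567, 1618 to 2003 and 643 to 871 pairs. The lowest subunit counts in Bic against control were without control 2 (4) and control 1 (5), and in KCl against Bic without Bic 1 (6).

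Signs of called values turned in KCl against Bic only, for Grik5 (-0.038) and Dlg1 (-0.071) with spike-in scaling, and with normexp and the 75th percentile for Gria2 A_52_P891243 (0.045), Grik1 A_52_P660400 (0.28), Grik2 A_52_P655120 (0.69) and Dlg1 (-0.047). Normexp and the 75th percentile shifted the median of all probes by 0.24 in KCl against control, and spike-in scaling by -0.23. The cause of these changes was not tested. Replicate numbers did not pair KCl arrays with the others, and 5 of 18 comparisons had an array correlate best with its own number. With a replicate block 10, 9 and 6 subunit probes and 18998, 16593 and 10627 of all probes passed, with 27, 21 and 21 auxiliary genes and 2585, 2004 and 850 pairs. In Bic against control, where same-numbered arrays deviated together, the block ended the calls of Gria1 A_52_P39575 and Gria3 A_52_P68221 and no other of a named probe. Choosing members by a gene-name column, and the series value table, were not run, as the values are equal and no such column was used. Dim probes such as those of Grik3 are limited by signal over background.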
